A study of Mus musculus with 9 samples.

Results

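Csf1 and Il34 encode the colony stimulating factor CSF-1 (M-CSF) and interleukin 34, the ligands of the macrophage growth factor receptor CSF1R. Both genes were located in the gene table by symbol, and all of their annotated isoforms were taken from the transcript table, which gave 2 of 56289 genes and 12 of 144726 transcripts. The study asked how Wang Bi tablet (WBT), a herbal medicine for rheumatoid arthritis, alters the transcriptome of mouse cells exposed to TNF-α. Poly-A RNA was sequenced from 3 untreated cultures (Con), 3 cultures given TNF-α for 24 h, and 3 cultures given TNF-α with WBT for 24 h (TNF-α+WBT, written WBP in the sample labels). The labels give no doses. The study states WBT at 1.0 μg/ml for the sequenced cultures, and states TNF-α at 20 ng/ml for its cytokine assay in the same cells, from which the sequenced groups were selected. The labels give no time for Con, and no group received WBT without TNF-α. All 9 libraries carry the same description, RAW264.7, a macrophage-like line from BALB/c mice, and the study describes no genetic modification of the cells. The study calls the 3 libraries of a group biological replicates, and no source used here says how the cultures were kept apart, so p-values measure the spread between these libraries.

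CSF1R is a receptor tyrosine kinase of monocytes, macrophages, microglia and osteoclast precursors, and the survival of these cells depends on it. CSF-1 is made by fibroblasts, endothelium and osteoblasts among other stromal cells, and splicing of its transcript decides whether the protein is secreted as a glycoprotein or proteoglycan or stays on the cell surface until a protease releases it. IL-34 shares no obvious sequence similarity with CSF-1, is known to be made by keratinocytes and neurons and to maintain Langerhans cells and microglia, and also binds the receptor phosphatase PTPRZ1 and the proteoglycan syndecan-1. In inflamed joints both ligands are studied as factors that maintain macrophages and osteoclasts.

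The values are fragments per kilobase of transcript, scaled to library size (FPKM), so levels of different genes are compared per length. Read depth was estimated from the spacing of low values at 16840000 to 26050000 fragments a library, which places 1602 to 4272 fragments on Csf1 in each. The label of a macrophage line was checked against 18 macrophage markers. Only Cd14 was above 1 FPKM in all 9 libraries, 7 markers were at 0 in all of them (Ctss, Cybb, Tyrobp, Adgre1, Itgam, Spi1 and Ptprc), and the list summed to 6.30-7.54 FPKM in Con, 7.22-8.37 in TNF-α and 7.29-8.98 in TNF-α+WBT. By contrast, 12 of 14 fibroblast markers and 8 of 12 Schwann cell markers were above 1 FPKM in every library. The cells are therefore called by their treatment group here. The summed Schwann cell markers ran from 925.4 to 982.3 FPKM in Con, from 751.2 to 813.2 in TNF-α and from 817.3 to 846.0 in TNF-α+WBT, and in limma with Benjamini-Hochberg adjustment 5 of the 11 that could be tested fell with TNF-α (S100b, Ngfr, Erbb3, Foxd3 and Cdh19), where 4.86% of all genes tested were called. Of the fibroblast markers, Col1a1 and Col1a2 rose and Pdgfrb and Postn fell. Whether a shift between cell types had a part in the differences below was not tested. In bulk RNA a change in the share of cells that express a gene and a change in RNA per cell cannot be told apart.

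Csf1 was the more abundant ligand in every library and rose with TNF-α to more than 2 times its untreated level, whereas Il34 rose by less. Csf1 (ENSMUSG00000014599) lies on the minus strand of chromosome 3, at chr3:107741048-107760469 in GRCm38. Its level in FPKM was 20.2, 21.8 and 23.1 without treatment, 54.9, 60.3 and 52.5 after TNF-α, and 48.8, 46.9 and 47.4 after TNF-α with WBT. All libraries given TNF-α, with or without WBT, lay above all Con libraries, and 11.1% of genes tested were likewise higher without overlap in TNF-α than in Con. The means were 21.7 ± 1.47 FPKM in Con, 55.9 ± 4.0 in TNF-α and 47.7 ± 0.944 in TNF-α+WBT (SD, n = 3). Against Con, TNF-α raised Csf1 by 1.36 on the log2(FPKM + 0.1) scale (SE 0.06, 95% interval 1.22 to 1.51), a 2.57-fold difference with an adjusted p of 7.13e-06 in limma with Benjamini-Hochberg adjustment. By p-value Csf1 ranked 38 of 25417 genes tested. In this comparison 4.86% of all genes tested had an adjusted p below 0.05, 2.94% as higher, and 16.1% had an unadjusted p below 0.05. Csf1 also passed the rule of the study, an unadjusted p below 0.05 with a fold change above 2, which 1.37% of genes passed as higher. An exact two-sided permutation test on Csf1 alone gave p = 0.1, the smallest that 3 against 3 libraries allow. Csf1 stood above 87.1% of the genes expressed in Con and above 95.8% of those expressed in TNF-α.

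**Figure D1:**
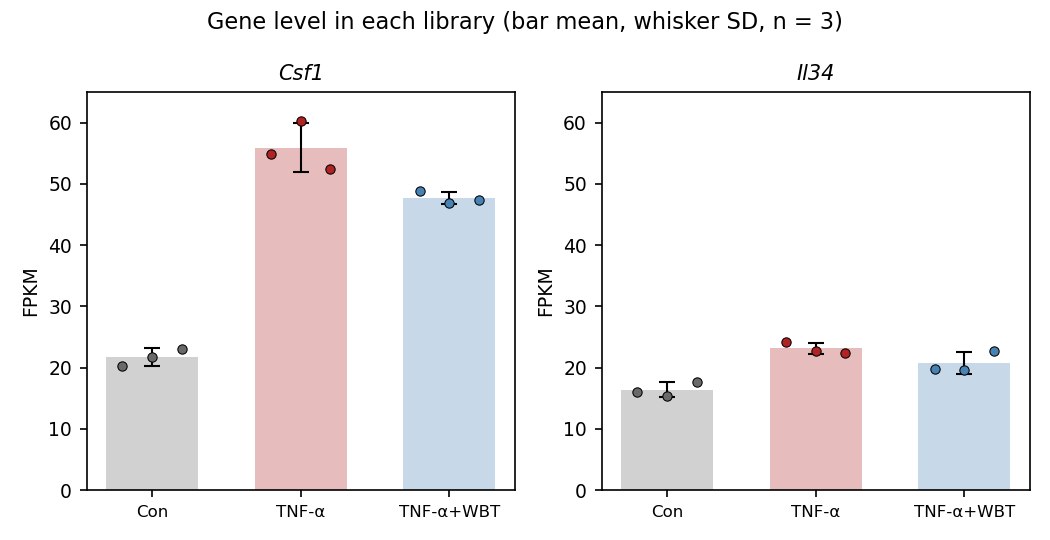
Level of Csf1 (left) and Il34 (right) in FPKM in the Con, TNF-α and TNF-α+WBT libraries, with points for single libraries, bars for the mean and whiskers for the SD of 3 libraries. Csf1 runs from 20.2 to 23.1 FPKM in Con and from 46.9 to 60.3 FPKM in all libraries given TNF-α, and Il34 from 15.3 to 17.7 and from 19.6 to 24.2 FPKM.

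The 250 bases before the annotated start of Csf1 are shown, taken from the RefSeq promoter windows of GRCm38.p6, minus strand, chr3:107760470-107760719. Of the 2 genes only Csf1 had a window there. Capitals mark the only match to the NF-κB consensus, at positions -154 to -145 from the start (chr3:107760614-107760623), which reads as the motif on the opposite strand.
Csf1 promoter: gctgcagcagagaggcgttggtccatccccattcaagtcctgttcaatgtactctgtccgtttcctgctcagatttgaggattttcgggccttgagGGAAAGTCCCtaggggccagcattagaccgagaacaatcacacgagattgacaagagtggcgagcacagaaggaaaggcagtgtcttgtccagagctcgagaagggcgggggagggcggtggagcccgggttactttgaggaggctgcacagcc
Over both strands of 32851 promoter windows of 300 bases, 8.46% held the NF-κB consensus. The SP1 box GGGCGG occurred at 2 places in the Csf1 window, at positions -51 to -46 and -41 to -36, and in 35.7% of all windows. Neither the AP-1 motif TGANTCA (7.81% of windows) nor the TATA box TATAAA (13.6%) was found in these letters. A match is a description of the sequence and does not show that a factor was bound in these cells.

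Il34 (ENSMUSG00000031750) lies on the minus strand of chromosome 8, at chr8:110741829-110805924. Its level in FPKM was 16.1, 15.3 and 17.7 without treatment, 24.2, 22.8 and 22.4 after TNF-α, and 19.8, 19.6 and 22.8 after TNF-α with WBT. The 3 TNF-α libraries were all above the 3 Con libraries, and the third TNF-α+WBT library lay within the TNF-α range. The means were 16.4 FPKM in Con, 23.1 in TNF-α and 20.7 in TNF-α+WBT. TNF-α raised Il34 by 0.50 on the log2 scale (SE 0.08, 95% interval 0.33 to 0.67), a 1.41-fold difference with an adjusted p of 0.00618 in limma with Benjamini-Hochberg adjustment. By p-value Il34 ranked 536 of 25417 genes, and its change was below the fold of 2 that the study required. The exact permutation p for Il34 alone was 0.1. Markers of the cells best known for IL-34 were few. Of 8 keratinocyte markers only Krt10 was above 1 FPKM in all libraries, and of 8 neuronal markers only Map2, Nefl and Nefm. With TNF-α limma called 2 of the 4 neuronal markers tested, Nefl and Nefm as lower, where 4.86% of all genes were called. Map2 went the other way, from 7.0-10.1 FPKM in Con to 11.0-15.0 in TNF-α, and was not called (adjusted p 0.186 in limma).

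The ratio of the gene values of Csf1 and Il34 differed between the untreated libraries and all others. The ratio of Csf1 to Il34 FPKM within a library was 1.25, 1.42 and 1.31 in Con, 2.27, 2.65 and 2.35 in TNF-α and 2.46, 2.40 and 2.08 in TNF-α+WBT. The untreated libraries did not overlap with either of the other groups, which overlapped with each other. The log2 ratio was 0.87 higher in TNF-α than in Con and 0.80 higher in TNF-α+WBT than in Con, each with an exact permutation p of 0.1, the smallest possible. Between TNF-α+WBT and TNF-α it differed by -0.07 (exact permutation p = 0.6).

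The comparison of TNF-α+WBT with TNF-α addresses the effect of WBT. Both ligands were lower on average with WBT, and neither difference passed the adjusted test. For Csf1 the 3 TNF-α+WBT libraries (46.9 to 48.8 FPKM) lay below the 3 TNF-α libraries (52.5 to 60.3 FPKM), a mean 14.7% lower. The difference was -0.23 on the log2 scale (95% interval -0.37 to -0.08), with an unadjusted p of 0.00661 and an adjusted p of 0.612 in limma with Benjamini-Hochberg adjustment. Of all genes tested, 5.61% were lower without overlap between these groups, 6.31% had an unadjusted p below 0.05, and 1 gene (0.00393%) had an adjusted p below 0.05. For Il34 the difference was -0.16 (95% interval -0.33 to 0.01, adjusted p 0.816 in the same limma fit).

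Against Con, TNF-α+WBT had more Csf1 by 1.14 on the log2 scale (95% interval 0.99 to 1.28, adjusted p 3.08e-05 in limma with Benjamini-Hochberg adjustment). Here 3.71% of genes were called, 2.31% as higher, 14.7% had an unadjusted p below 0.05, and 10.2% were higher without overlap. Il34 was higher by 0.34 (95% interval 0.17 to 0.51) with an adjusted p of 0.0486 in limma, close to the threshold. That call was lost in 13 of 20 alternative settings, with adjusted p values from 0.00506 to 0.142 and a difference that stayed positive, 0.27 to 0.39. The comparisons share libraries and are not independent of each other.

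**Figure D2:**
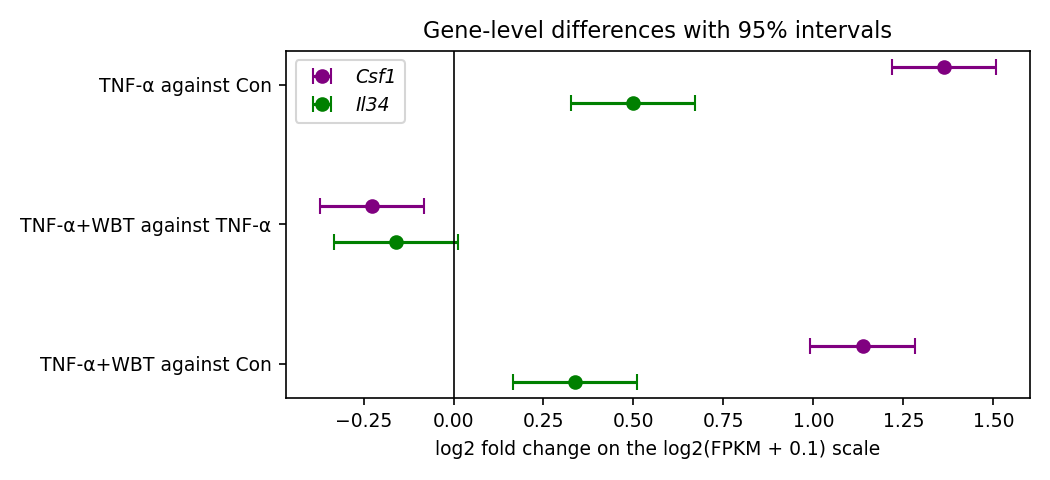
Log2 fold change of Csf1 and Il34 on the log2(FPKM + 0.1) scale (horizontal axis) in the 3 comparisons (vertical axis), with limma's 95% intervals. The intervals of both genes lie above 0 in the comparisons with Con, that of Csf1 lies below 0 in TNF-α+WBT against TNF-α (-0.37 to -0.08), and that of Il34 there includes 0.

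The transcript table resolved 7 isoforms of Csf1 and 5 of Il34, and all 12 could be tested. Among the Csf1 isoforms the main choice is at exon 6: the long exon 6 of 1016 bases carries the sites at which secreted CSF-1 is cleaved and joined to its glycosaminoglycan chain, and the short exon 6 of 131 bases starts 885 bases further on (295 codons, chr3:107748285-107749169) and gives the form that stays at the cell surface. The junctions that tell these forms apart are given as 30 bases on each side from GENCODE M21 transcripts (GRCm38), with exon 5 in lower case and the next exon in capitals.
Csf1-201, long exon 6: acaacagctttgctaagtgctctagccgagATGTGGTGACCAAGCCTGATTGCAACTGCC
Csf1-202, short exon 6: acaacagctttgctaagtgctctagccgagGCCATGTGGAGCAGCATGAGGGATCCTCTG

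Csf1-201, with the long exon 6 and 1656 coding bases, held most of the Csf1 signal, on average 69.2% of the summed FPKM and 84.6% of the estimated fragments. It was measured at 15.3, 15.2 and 13.2 FPKM in Con, 35.1, 38.9 and 39.6 in TNF-α and 33.3, 36.4 and 33.4 in TNF-α+WBT. All libraries given TNF-α were above all Con libraries, and, unlike for the whole gene, those with and without WBT overlapped. Csf1-201 rose by 1.37 with TNF-α (log2, 95% interval 1.18 to 1.56, adjusted p 0.000299 in limma over 80149 transcripts), where 0.635% of transcripts were called. It differed by -0.14 between TNF-α+WBT and TNF-α (95% interval -0.33 to 0.05, adjusted p 0.943 in limma, 0.0424% of transcripts called). Against Con, it was 1.23 higher in TNF-α+WBT (adjusted p 0.000704 in limma, 0.455% called).

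The short form Csf1-202 was measured at 0.901, 1.81 and 7.27 FPKM in Con, 4.71, 2.17 and 2.51 in TNF-α and 1.60, 1.22 and 2.13 in TNF-α+WBT. The third Con library stood apart, and the groups Con and TNF-α overlapped. Its share of the summed Csf1 FPKM was 31.4% in that library and 2.61% to 8.58% in the other 8. No change of Csf1-202 passed the test (log2 difference 0.34 with TNF-α, 95% interval -1.22 to 1.90, adjusted p 0.946 in limma). Between TNF-α+WBT and TNF-α it was the only Csf1 isoform without overlap, lower with WBT by a log2 difference of -0.84 (95% interval -2.40 to 0.73, adjusted p 0.943 in limma), where 4.95% of transcripts were lower without overlap. The difference between TNF-α and Con turned to -0.30 without the first Con library, and that between TNF-α+WBT and Con, -0.50 with all libraries, turned to 0.31 without the third Con library. An isoform estimate divides the fragments of shared exons by a model, so these values are less certain than those of the gene.

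The other Csf1 isoforms each held less than 10% of the summed Csf1 FPKM on average. Csf1-206, an annotated retained-intron transcript that is not coding, was at 0.0363 to 0.118 FPKM in Con, 0.987 to 1.34 in TNF-α and 0.585 to 1.21 in TNF-α+WBT, at most 61.0 fragments in a library. It rose by 2.73 (log2, adjusted p 0.0157 in limma) with TNF-α and was 2.28 higher than Con in TNF-α+WBT (adjusted p 0.0445 in limma). The sizes depended on the pseudocount: with 0.01 they were 3.68 and 3.17, and with 1 they were 0.96 and 0.73, the last no longer called (adjusted p 0.171 in limma). The call with TNF-α was lost in 4 of the 9 fits that left out a library (adjusted p 0.0190 to 0.0717 over these limma fits), and the call in TNF-α+WBT against Con in all 9 (0.0844 to 0.119). Csf1-203, which codes for the same length as Csf1-201 and ends in another last exon, was at 0.916-1.17 FPKM in Con and 1.91-5.89 in TNF-α, which did not overlap but did not pass the test (adjusted p 0.268 in limma). Csf1-205 and Csf1-207 are annotated without a whole coding sequence. Csf1-205 was at 0.954-2.49 FPKM in Con, 4.31-6.95 in TNF-α and 3.90-5.26 in TNF-α+WBT (adjusted p 0.0985 for TNF-α against Con in limma), with an average share of 9.3%. Csf1-207 was at 0.398-0.692, 1.58-6.84 and 1.21-2.96 FPKM (adjusted p 0.193), and Csf1-204, with the short exon 6, stayed below 1 FPKM in all libraries (adjusted p 0.666 in limma). With TNF-α all 7 Csf1 isoforms had a positive log2 difference, although the mean FPKM of Csf1-202 was 3.33 in Con and 3.13 in TNF-α. Of the 7, 5 had no overlap with Con, against 7.49% of all transcripts tested that were higher without overlap. Calls were made for 2, against 0.635% of all transcripts. The isoforms share exons, so they are not separate observations.

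**Figure D3:**
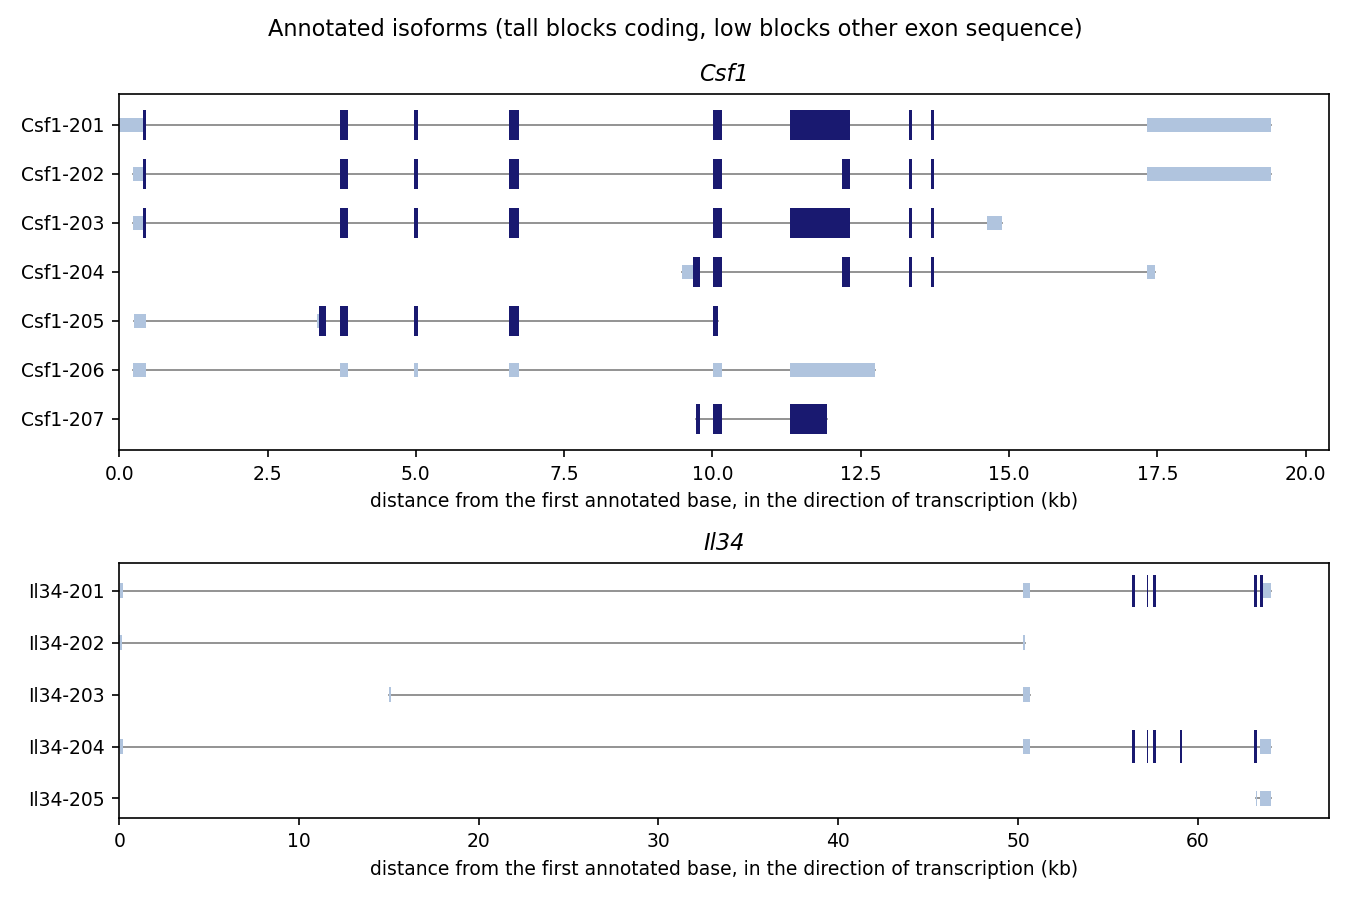
Annotated isoforms of Csf1 (top) and Il34 (bottom) against distance in kb from the first annotated base of the gene, in the direction of transcription, with tall blocks for coding and low blocks for other exon sequence. The long exon 6 of Csf1-201, Csf1-203 and the retained-intron Csf1-206 starts 885 bases before the short exon 6 of Csf1-202 and Csf1-204, and Il34-203 joins an exon inside the first intron to exon 2.

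Of the 5 Il34 isoforms 2 are coding. They differ by an added exon 6 of 118 bases in Il34-204 (chr8:110746818-110746935), which shortens the coding sequence from 705 to 657 bases. Their junctions from exon 5 are shown in the same way.
Il34-201: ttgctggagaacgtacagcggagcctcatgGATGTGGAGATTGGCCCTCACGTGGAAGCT
Il34-204: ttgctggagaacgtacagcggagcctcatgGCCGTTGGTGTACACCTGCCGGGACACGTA

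Il34-201 was at 6.91, 7.44 and 7.82 FPKM in Con, 11.0, 11.3 and 10.2 in TNF-α and 8.97, 10.9 and 9.66 in TNF-α+WBT. The Con libraries were below all others. The difference with TNF-α was 0.54 on the log2 scale (95% interval 0.32 to 0.77), with an unadjusted p of 0.000605 and an adjusted p of 0.0756 in limma over all transcripts. Il34-201 held 46.6% of the summed Il34 FPKM and 69.9% of the estimated fragments, 270.4 to 432.5 in a library. The added-exon form Il34-204 was at 0.509 to 1.65 FPKM over all libraries. Both coding forms summed to 7.72-8.74 FPKM in Con, 11.8-12.4 in TNF-α and 9.95-11.9 in TNF-α+WBT.

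A noncoding transcript, Il34-203, was assigned a similar part of the summed Il34 FPKM. Of its 515 bases, 415 lie within exon 2 of the coding isoforms. Its value therefore depends on how the model divided the fragments of that exon. Il34-203, 515 bases in 2 exons, was at 8.25, 6.44 and 8.97 FPKM in Con, 12.0, 10.1 and 10.4 in TNF-α and 9.69, 7.47 and 11.6 in TNF-α+WBT. Its TNF-α libraries were above the Con libraries, while the TNF-α+WBT libraries overlapped with both groups. It accounted for 46.9% of the summed Il34 FPKM and, as a short transcript, for 21.4% of its estimated fragments. Its difference with TNF-α was 0.46 (log2, adjusted p 0.570 in limma). The span of an antisense gene, Gm15894, covers exon 2 of Il34. This gene was at 0.0908 FPKM in Con, 0.146 in TNF-α and 0.191 in TNF-α+WBT on average. The library kit is not described as marking strand. Whether exons of Gm15894 lie over exon 2 was not checked, so it is not known whether fragments there are ambiguous between these genes. Il34-202 and Il34-205 had at most 2.4 fragments in a library.

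Shares of isoforms within a gene were compared for the 7 isoforms that held at least 5% on average, in 21 exact permutation tests. None passed: the smallest exact p was 0.2, and after Benjamini-Hochberg adjustment over the 21 every exact p was 1.0. The share of Csf1-201 in the summed Csf1 FPKM was 57.3% to 76.0% in Con, 63.9% to 75.5% in TNF-α and 68.3% to 77.5% in TNF-α+WBT. The share of Il34-201 was 42.9% to 48.5%, 45.3% to 49.5% and 42.3% to 55.9% in the same order. With 3 libraries a group the exact test cannot go below 0.1.

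**Figure D4:**
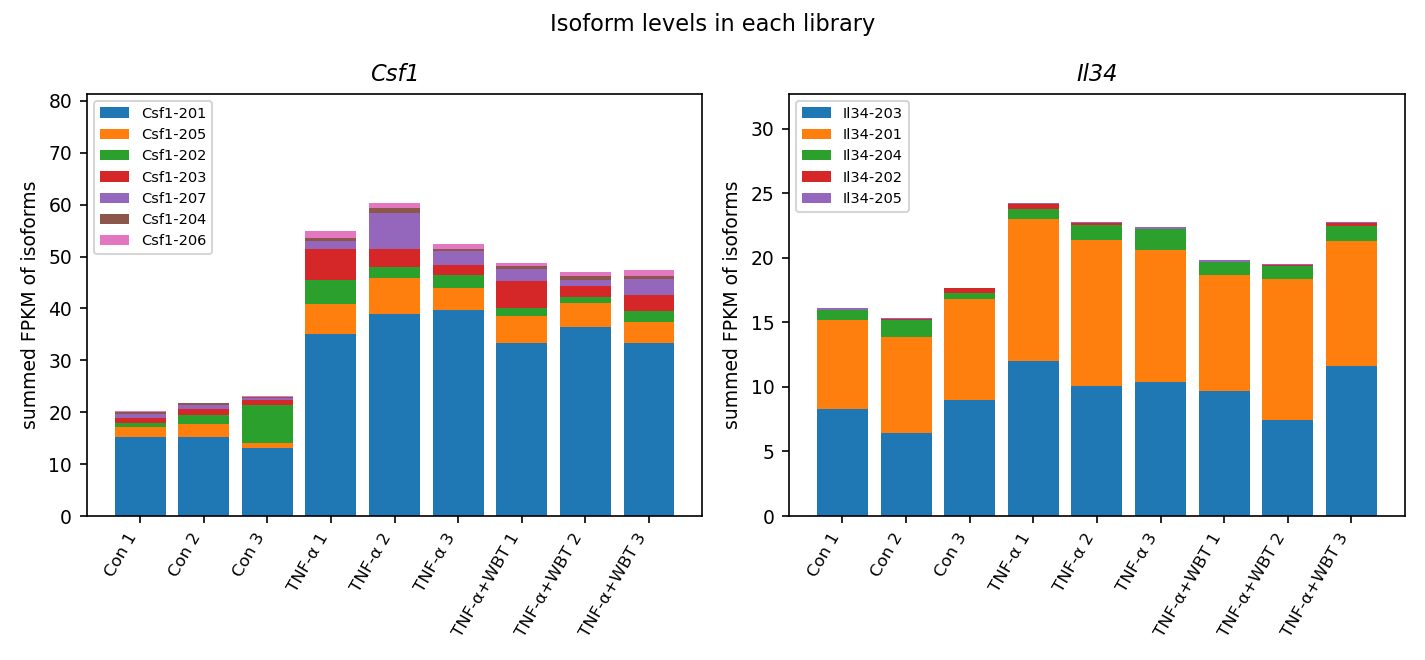
Stacked FPKM of the isoforms of Csf1 (left) and Il34 (right) in each of the 9 libraries. Csf1-201 is the largest segment of Csf1 in every library, Csf1-202 reaches 7.27 FPKM in the third Con library and at most 4.71 FPKM in the others, and Il34-201 and Il34-203 together make up most of Il34.

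The receptors and binding partners of the ligands were present unequally. Csf1r, the shared receptor, was at 0 to 0.0725 FPKM, at most 6.6 fragments in a library. Ptprz1, the receptor phosphatase that binds IL-34, rose from 0.739-1.04 FPKM in Con to 2.25-2.44 in TNF-α and 1.89-2.25 in TNF-α+WBT, a log2 difference with TNF-α of 1.27 (adjusted p 0.00218 in limma with Benjamini-Hochberg adjustment). In TNF-α+WBT it was 1.08 above Con (adjusted p 0.00608 in limma) and differed by -0.18 from TNF-α (adjusted p 0.898). Sdc1, which encodes syndecan-1, was the most abundant partner, at 46.7-48.5 FPKM in Con, 35.0-42.0 in TNF-α and 32.1-42.5 in TNF-α+WBT, and did not pass the test (adjusted p 0.136 against Con). Trem2, an IL-34-binding receptor of myeloid cells, and Tyrobp, its adaptor, were at 0 in all libraries. Of this list of 5 genes 3 could be tested, with a median log2 difference of -0.35 with TNF-α against 0.0028 over all genes. Ptprz1 was the only limma call in each comparison with Con, 1 of 3. Over all genes limma called 4.86% with TNF-α and 3.71% in TNF-α+WBT against Con. With limma-voom on estimated fragments, an alternative added after seeing the data, Sdc1 was also called as lower with TNF-α. Over all genes limma-voom called 13.7% with TNF-α, 10% in TNF-α+WBT against Con and 0.0399% in TNF-α+WBT against TNF-α. Between TNF-α+WBT and TNF-α none of the 3 was called by limma, nor any of the 2 that limma-voom tested. In that comparison 0 of the 3 had an unadjusted p below 0.05 in limma, where 6.31% of all genes did.

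Genes that release CSF-1 from the cell surface or process it were all expressed, and 3 of the 5 changed with TNF-α, against 4.86% of all genes called. Adam17, the protease that sheds cell-surface CSF-1 and TNF-α, was at 15.4-15.7 FPKM in Con, 20.8-22.6 in TNF-α and 19.8-21.0 in TNF-α+WBT, a rise of 0.47 with TNF-α on the log2 scale (adjusted p 0.000464 in limma). Rhbdf2, which encodes iRhom2, a partner that ADAM17 needs for maturation, went from 5.88-7.46 FPKM to 12.3-14.3 and 13.2-13.7, a rise of 1.0 (adjusted p 0.000362 in limma). Neither overlapped between Con and the groups given TNF-α. Higher than Con without overlap were 11.1% of all genes in TNF-α and 10.2% in TNF-α+WBT. Adam10, a related sheddase, fell by 0.19 (adjusted p 0.0404 in limma), from 55.3-58.8 to 48.7-51.3 FPKM. Rhbdf1, which encodes iRhom1, and Furin, a proprotein convertase, did not pass the test with TNF-α (adjusted p 0.991 and 0.0555 in limma). Against Con, TNF-α+WBT had higher Adam17 (0.40, adjusted p 0.00154 in limma) and Rhbdf2 (1.01, adjusted p 0.000427 in limma). These were 2 of the 5, where 3.71% of all genes were called. Between TNF-α+WBT and TNF-α no gene of the list was called by limma or limma-voom. In that comparison 0 had an unadjusted p below 0.05 in limma, where 6.31% of all genes did. By limma-voom 4 of the 5 were called in each comparison with Con, Furin among them as lower, against 13.7% and 10% of all genes. The median log2 difference of the 5 genes with TNF-α was -0.01.

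**Figure D5:**
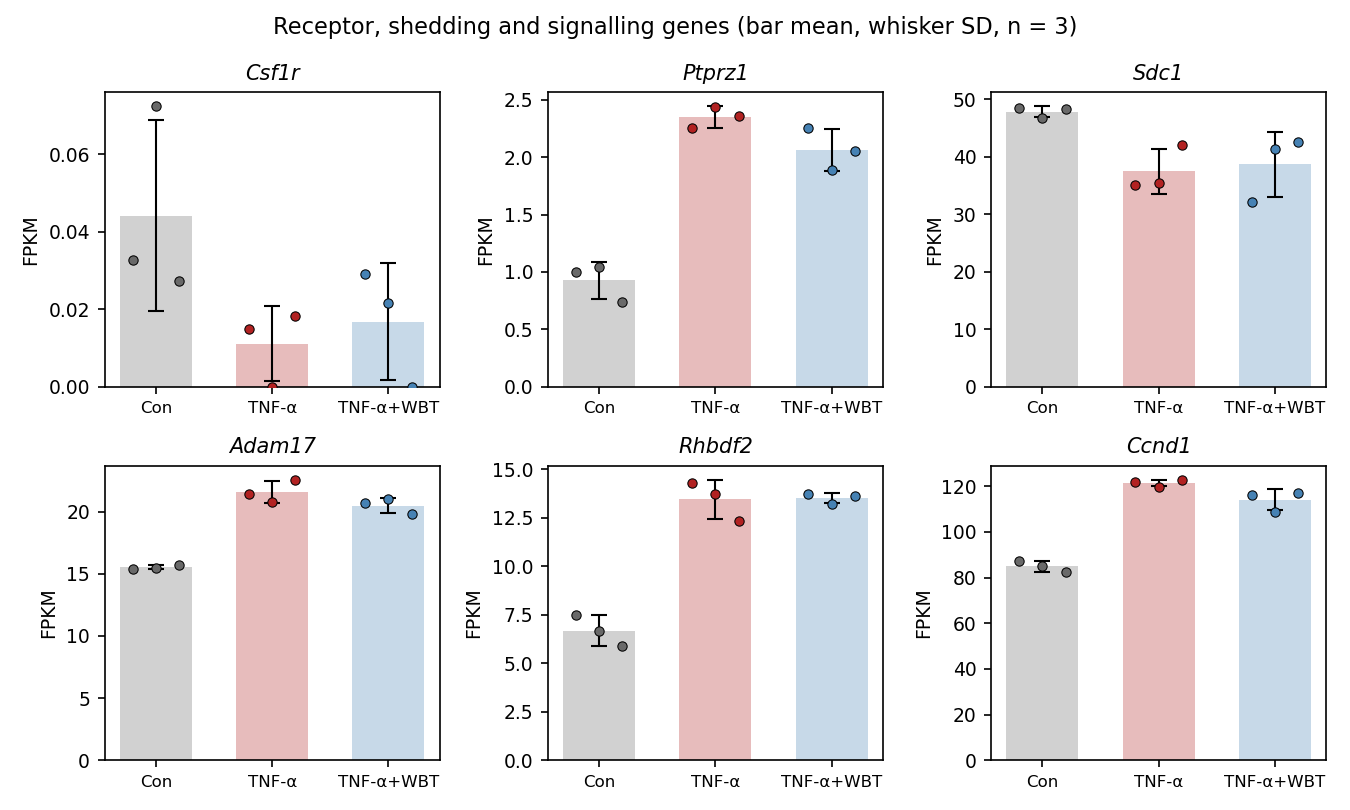
Level in FPKM of Csf1r, Ptprz1, Sdc1, Adam17, Rhbdf2 and Ccnd1 in the Con, TNF-α and TNF-α+WBT libraries, with points for libraries, bars for the mean and whiskers for the SD of 3 libraries, each panel with its own vertical axis from 0. Csf1r stays at or below 0.0725 FPKM, and Ptprz1, Adam17, Rhbdf2 and Ccnd1 are higher in all libraries given TNF-α than in all Con libraries.

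Among 26 genes of the pathway below CSF1R, which many other growth factor receptors also use, 24 were above 1 FPKM in all libraries. With TNF-α 2 of the 26 passed the test in limma, both as higher, a share near the 4.86% called over all genes: Ccnd1, the cyclin D1 gene, at 82.5-87.1 FPKM in Con and 119.9-122.8 in TNF-α (log2 difference 0.52, adjusted p 0.0001 in limma), and Pik3r1, the regulatory subunit of phosphoinositide 3-kinase, at 22.7-24.2 and 29.3-29.8 FPKM (0.32, adjusted p 0.00148 in limma). In TNF-α+WBT against Con 3 of the 26 were called, where 3.71% of all genes were called. Ccnd1 and Pik3r1 were higher as well (0.43 and 0.34, adjusted p 0.000427 and 0.00133 in limma). Ets2, a transcription factor gene, was higher by 0.30 (adjusted p 0.0444 in limma). Between TNF-α+WBT and TNF-α none of the 26 was called by limma, nor any of the 25 that limma-voom tested. In that comparison 3 of the 26 had an unadjusted p below 0.05 in limma, where 6.31% of all genes did. By limma-voom 7 of 25 were called with TNF-α, 5 as higher and 2 as lower, where 13.7% of all genes were called, and in limma 6 of 26 had an unadjusted p below 0.05, where 16.1% of all genes did. The median difference of the list with TNF-α was 0.02 in limma.

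Among 14 other growth factors of blood cells that were listed, none passed the limma test in any comparison. Over all genes limma called 4.86% with TNF-α, 3.71% in TNF-α+WBT against Con and 0.00393% in TNF-α+WBT against TNF-α. In a list of this size a count of 0 is near these shares and does not set Csf1 and Il34 apart. Of 14 listed genes 12 could be tested, with a median log2 difference of 0.26 with TNF-α, and 4 were above 1 FPKM in all libraries. With TNF-α 4 of the 12 had an unadjusted p below 0.05, against 16.1% of all genes, and limma-voom on estimated fragments called 3 of 7, Kitl as lower and Lif and Flt3l as higher, against 13.7% of all genes. Between TNF-α+WBT and TNF-α neither tool called any, and 0 had an unadjusted p below 0.05 in limma, against 6.31% of all genes. Kitl, the stem cell factor gene and the most abundant of them, was at 16.4-22.0 FPKM in Con, 13.2-15.0 in TNF-α and 14.2-16.2 in TNF-α+WBT (adjusted p 0.0548 for TNF-α against Con). Flt3l, the ligand of FLT3, was at 2.41-3.03, 3.74-4.48 and 3.58-5.95 FPKM (adjusted p 0.139 for TNF-α against Con and 0.0539 for TNF-α+WBT against Con). Lif was at 6.37-7.70, 8.29-9.49 and 7.41-10.3 FPKM. The other colony stimulating factors were near the limit of detection, Csf2 with at most 3.8 and Csf3 with at most 2.8 fragments in a library. Il3 and Epo were listed at 0. Of 8 genes for other colony stimulating factor receptors and osteoclast factors, 3 could be tested and none was called in limma, with 2 at an unadjusted p below 0.05 and 1 called by limma-voom (Flt3, as higher) with TNF-α. Of this list only Csf2ra was above 1 FPKM in all libraries (7.32-8.20 FPKM in Con, 9.19-11.1 in TNF-α, adjusted p 0.0870). The osteoclast factor genes Tnfsf11 (RANKL) and Tnfrsf11b (osteoprotegerin) had at most 1 fragment in a library.

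The genes whose levels followed Csf1 most closely were found by Pearson's r on log2(FPKM + 0.1) over the 9 libraries among the 12685 genes whose mean level reached 1 FPKM. The libraries fall into 3 treatment groups, and r is given as a description. They were Rgs14 (r = 0.997), Cd74 (0.995), Rnd1 (0.995), Vcam1 (0.995) and Akap12 (0.995). Vcam1, the adhesion molecule that holds leukocytes on activated stroma and endothelium, was at 10.6-10.8 FPKM in Con, 45.1-50.3 in TNF-α and 38.4-40.4 in TNF-α+WBT. Cd74, the invariant chain of MHC class II, was at 0.982-1.26, 14.4-15.7 and 9.91-11.6 FPKM. In both genes the TNF-α+WBT libraries lay between the Con and TNF-α libraries. The genes were picked for their correlation with Csf1, so the choice favoured this order. Between TNF-α+WBT and TNF-α, Rgs14 (3.57-3.86 and 4.08-4.54 FPKM) did not overlap either, while Rnd1 (8.43-9.18 and 9.17-11.6) and Akap12 (8.4-9.47 and 9.38-10.7) did. Of all genes tested, 5.61% were lower without overlap in TNF-α+WBT. Neither the Vcam1 nor the Cd74 difference between these groups was called (adjusted p 0.300 and 0.356 in limma). For Il34 the closest were AU020206 (0.986), Nuak1 (0.972), Etv5 (0.970), C1qtnf1 (0.968) and Xylt1 (0.964). Between Csf1 and Il34 r was 0.922, which placed Il34 at rank 392 among the genes compared with Csf1.

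Genes within 100 kb of either ligand gene were not called in limma in any comparison. Of 11 tested, 1 had an unadjusted p below 0.05 with TNF-α, 0 in TNF-α+WBT against TNF-α and 2 in TNF-α+WBT against Con. The shares of all genes were 16.1%, 6.31% and 14.7%. Of the 6 that limma-voom tested, 1 was called as lower in each comparison with Con, Mtss1l, against 13.7% and 10% of all genes. Csf1 has 3 annotated neighbours, all tested. Ahcyl1, the only one above 1 FPKM, was at 48.6-51.9 FPKM in Con and 50.7-51.6 in TNF-α. Of 10 neighbours of Il34, 8 were tested, and Mtss1l had the smallest adjusted p with TNF-α (60.6 FPKM in Con and 51.0 in TNF-α on average, log2 difference -0.25, adjusted p 0.0612). Vac14, Sf3b3, Cog4 and Fuk, the other neighbours above 1 FPKM, had log2 differences with TNF-α of 0.16, 0.07, -0.01 and 0.00.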

How the data were processed

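RNA from 9 cultures was sequenced in pairs after poly-A selection, and the authors deposited FPKM values for 56289 genes and 144726 transcripts. A workflow picture names HISAT2, StringTie and Ballgown. Versions, genome build and strand setting are not given in the sources used here, and 98.1% of gene identifiers are in GENCODE M21 (GRCm38). The gene value was the sum of its transcripts within 0.0001 FPKM for 54845 of 55230 genes. The members and all gene lists were chosen with earlier results of these data known.

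Features with a value above 0 in 3 or more libraries entered limma 3.58.1 (R 4.3.3) as log2(FPKM + 0.1) (intensity trend, 1 mean per group, all 9 libraries, Benjamini-Hochberg adjustment over all features). An adjusted p below 0.05 was called. Fold changes on this scale understate those of low genes. The fit was tested on simulated data first. Ratios and isoform shares were compared by two-sided exact permutation tests in SciPy 1.17.1.

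Depth came from 10717 genes whose low values lie on whole fragments (58.0% to 60.9% within 0.1 of a whole number, 20% by chance), so fragment numbers are estimates. Named genes were both members and their isoforms, receptors, called genes of the lists, the 5 genes most like each member and tested neighbours. Alternatives were other pseudocounts, filters, scalings, replicate blocks, groups fitted, and libraries left out.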

Additional observations from a re-analysis of the deposited data

How the results depend on the processing

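Csf1 kept its direction and its side of the threshold in all 3 comparisons under every alternative: 1.31 to 1.41 with TNF-α against Con (log2), -0.27 to -0.17 for TNF-α+WBT against TNF-α and 1.09 to 1.18 for TNF-α+WBT against Con. Il34 did so in the first comparison (0.45 to 0.55) and the second (-0.23 to -0.12). Its call in TNF-α+WBT against Con was lost with a pseudocount of 1 (0.32, adjusted p 0.0533 in limma), with genes above 0 in 1 library (0.34, 0.0621), without the intensity trend (0.34, 0.130), with only the groups compared (0.34, 0.121) and in 8 of 9 fits without a library (0.27 to 0.39 over the 9); only leaving out the third Con library kept it (adjusted p 0.0487). The cause was not tested.

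Libraries with the same replicate number did not deviate together (correlations -0.05 to 0.098), so the numbers were not taken as pairs. With a replicate block, Il34 in TNF-α+WBT against Con stood at 0.34 with an adjusted p of 0.0651 in limma, 1 isoform instead of 2 was called in each comparison with Con, and 0 genes instead of 1 were called in TNF-α+WBT against TNF-α.

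The number of genes called with TNF-α against Con, 1236, became 2057 with limma-voom on estimated fragments of 15037 genes and 828 to 1100 without a library. In TNF-α+WBT against Con, 942 became 1504 with limma-voom and 588 to 817 without a library, lowest without the third Con library. In TNF-α+WBT against TNF-α, 1 became 11 with a pseudocount of 0.01, 7 without the trend, 2 with only the groups compared, 6 with limma-voom and 0 to 11 without a library. Of the 2 isoforms called in each comparison with Con, 1 to 2 stayed called with TNF-α and 1 in TNF-α+WBT without a library, and 1 stayed called in TNF-α+WBT with a pseudocount of 1, with transcripts above 0 in 1 library and with a mean of at least 1 FPKM. The log2 ratio of Csf1 to Il34 in TNF-α+WBT against TNF-α, -0.07, ran from -0.1133 to 0.0087 without a library, the last without the third TNF-α+WBT library. Without a library, Csf1-202 ran from -0.30 to 1.14 with TNF-α (negative without the first Con library) and from -1.13 to 0.31 in TNF-α+WBT against Con (positive without the third), and in TNF-α+WBT against TNF-α Csf1-203 ran from -0.47 to 0.32 and Il34-204 from -0.35 to 0.14. Il34-201 passed the threshold with TNF-α among transcripts with a mean of at least 1 FPKM (adjusted p 0.0292 in limma). Depth limits Csf1r, Csf2, Csf3 and the smaller isoforms, which had few fragments.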
